A study of Felis catus with 15 samples.

Results

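Collagens are secreted or membrane-bound proteins in which 3 chains wind into a triple helix, and they are the main fibrous component of the connective tissue around an organ. The corpus lies between caput and cauda of the epididymis and is a coiled duct of epithelium resting on a basement membrane, with smooth muscle and vascular stroma around it. Of the 38995 genes in the count table of the domestic cat (Felis catus), 43 have a collagen chain symbol of the form COL, number, A, number, and these 43 are described here; 1 more gene of that form is not analysed here. They were grouped by structural class: 11 fibrillar chains, 6 chains of the basement membrane network, 3 short-chain network chains, 5 beaded filament chains, 10 fibril-associated chains, 1 anchoring fibril chain, 2 multiplexins, 3 transmembrane collagens and 2 others. After a filter on low counts, 39 of the 43 were tested together with all 18038 genes that passed. Since a gene can pass through the group in which it is high, counts below are of tested members and not of all members.

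The 15 RNA-seq libraries form 3 groups of 5: fresh corpus, corpus explants (pieces of tissue kept in culture), and corpus explants cultured with extracellular vesicles, the membrane-bound particles that cells release, taken from the caput, the region upstream. The stated purpose was to see how caput vesicles change the explants, with fresh tissue as the control. The labels give no genotype, breed, age or culture medium; a code in them reads D0 for the fresh group and D3 for the other groups, without explanation. Libraries are called fresh 1 to 5, culture 1 to 5 and vesicles 1 to 5, and values listed below follow that order. The labels do not say whether the numbers stand for separate animals, so p-values reflect only the spread among these samples, and that spread may be technical. Levels are CPM (the share of a library's scaled total, in counts per 1e6); changes are log2 fold changes ± standard error (SE) from edgeR's quasi-likelihood test, and a gene was called changed where the p adjusted by the Benjamini-Hochberg method over all tested genes was under 0.05.

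As background, collagen genes fall into families by how the finished trimers assemble. Fibrillar collagens (types I, III and V are the main stromal ones) build the rope-like fibrils made chiefly by fibroblasts and smooth muscle cells. Type IV collagens form the sheet of the basement membrane, type VI forms beaded microfilaments near cells, and fibril-associated collagens decorate fibrils. Each chain is modified and folded in the endoplasmic reticulum, trimmed outside the cell and then cross-linked.

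Total counts were 17308832 to 27420218 per library. A library stood apart before any comparison: the 13 mitochondrial protein genes held 0.179% of the counts of culture 3, against 6.23% to 7.48% in the other cultures, 6.40% to 7.26% with vesicles and 8.69% to 11.4% in fresh tissue. Results that rest on culture 3 are given with and without it. Of 8 epithelium markers, KRT8, KRT19 and CDH1 were called higher in culture, PAX2, PAX8 and AQP9, of the epididymal epithelium, were called lower, and EPCAM and KRT18 were not called. With vesicles, 2 were called higher and 3 lower. Of all genes, 28.7% were called higher and 25.6% lower in culture, and these shares apply to the marker counts below as well. The summed level of the 8 markers was 2373 to 2771 CPM in fresh tissue, 2314 to 6902 CPM in culture, highest in culture 3, and 2249 to 4493 CPM with vesicles. Means went from 257 to 1638 CPM for KRT19 and from 206 to 14.8 CPM for AQP9.

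Collagen transcripts took a larger part of the RNA after culture. They held 0.235%, 0.265%, 0.155%, 0.108% and 0.123% of all counts in fresh tissue, 0.541%, 1.71%, 1.93%, 0.234% and 0.526% in culture, and 0.392%, 1.52%, 0.465%, 0.215% and 0.697% with vesicles. Each culture was above the fresh library of its own number, and cultures 2 and 3 were the highest, while culture 4 and vesicles 4 lay within the fresh range. In culture against fresh, 20 of the 39 tested collagens were called higher, 2 were called lower and 17 were not called; of all 18038 genes, 28.7% were called higher and 25.6% lower. The median change of the 39 was 1.67, beside 0.04 for all genes. In culture with vesicles against fresh, 15 were higher, 4 lower and 20 not called (all genes: 27.4% higher, 25.5% lower), with a median of 0.77 beside 0.01. These shares of all genes apply as well to the class counts with all libraries given below. The 2 comparisons share the fresh libraries, so they are not independent of each other.

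Without culture 3, the count in culture against fresh was 15 higher and 2 lower, with a median of 0.78. COL5A3, COL6A1, COL6A2, COL9A3 and COL16A1 were no longer called. In that fit, about 11090 of about 18520 genes were called in either direction, beside 9786 of 18038 with all libraries. Another fit without culture 3, chosen after seeing the data, took the replicate number as a block. It called 19 collagens higher and 6 lower, and about 12180 of about 18520 genes in either direction. COL6A1, COL6A2 and COL9A3 were called there, and COL5A3 and COL16A1 were not. With all libraries, the culture and fresh groups lay apart upward for 10 of the 39 tested members, each of them called higher, and downward for 0. Of all 18038 genes, these groups lay apart upward for 20.2% and downward for 20.4%. With vesicles, groups lay apart upward for 12 members and downward for 1, beside 25.3% and 24% of all genes. In bulk tissue, a lower transcript level can come from fewer cells of a type or from less RNA per cell, and a higher level from the reverse, and these cannot be told apart.

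Sizes in culture also depended on the test. Quality weights in limma-voom let a library that deviates count for less. With them, 15 collagens were called higher and 5 lower in culture, and the median was 0.69. About 11040 of all 18038 genes were called in that fit, in either direction. COL3A1 (1.80, adjusted p = 0.0513), COL5A3 (1.11, adjusted p = 0.243), COL6A1 (0.99, adjusted p = 0.0787), COL6A2 (1.03, adjusted p = 0.0889), COL9A3 (0.31, adjusted p = 0.647) and COL16A1 (0.48, adjusted p = 0.208) were not called there. COL24A1 (-1.65, adjusted p = 0.00714), COL21A1 (-2.04, adjusted p = 0.0106) and COL26A1 (-1.82, adjusted p = 0.0199) were called lower, and COL28A1 higher. The stromal fibrillar chains that remained called were over 1.5 times smaller in fold, at 2.62 for COL1A1, 1.85 for COL1A2, 2.47 for COL5A1 and 2.13 for COL5A2. So were COL27A1 at 2.04, COL4A1 at 3.12, COL4A2 at 2.57, COL6A3 at 2.35, COL7A1 at 0.69, COL9A2 at 3.31, COL15A1 at 3.20 and COL18A1 at 1.75, and the cross-linking enzymes LOXL2 at 4.27 and PXDN at 3.00. With vesicles against fresh, COL5A3 was not called by limma-voom (1.40, adjusted p = 0.103), COL6A2 (1.13, adjusted p = 0.0412) and COL7A1 (1.01, adjusted p = 0.000366) were, COL26A1 was called lower, COL3A1 was 1.65 (adjusted p = 0.0464) and COL13A1 was 4.48 (adjusted p = 0.0101). DESeq2 called COL21A1 lower in culture (-1.42, adjusted p = 0.0415), and COL6A1 and COL6A2 higher with vesicles (adjusted p of 0.0492 and 0.042). A fit of only the compared groups did not call COL16A1 in culture (adjusted p = 0.058) and called COL6A2 and COL7A1 with vesicles (adjusted p of 0.037 and 0.000939), and COL25A1 did not pass a filter at 1 CPM in 5 libraries. With the replicate number as a block, 17 collagens were called higher and 5 lower in culture. The block fit called about 10440 of all 18038 genes in either direction. COL12A1 (-0.56, adjusted p = 0.00719), COL21A1 (-1.52, adjusted p = 0.00372) and COL24A1 (-1.16, adjusted p = 0.0045) were then called lower and COL19A1 (0.89, adjusted p = 0.0306) higher. COL5A3, COL7A1, COL9A3 and COL16A1 were not called by the block fit (adjusted p of 0.0524, 0.0696, 0.0617 and 0.0633).

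**Figure D1:**
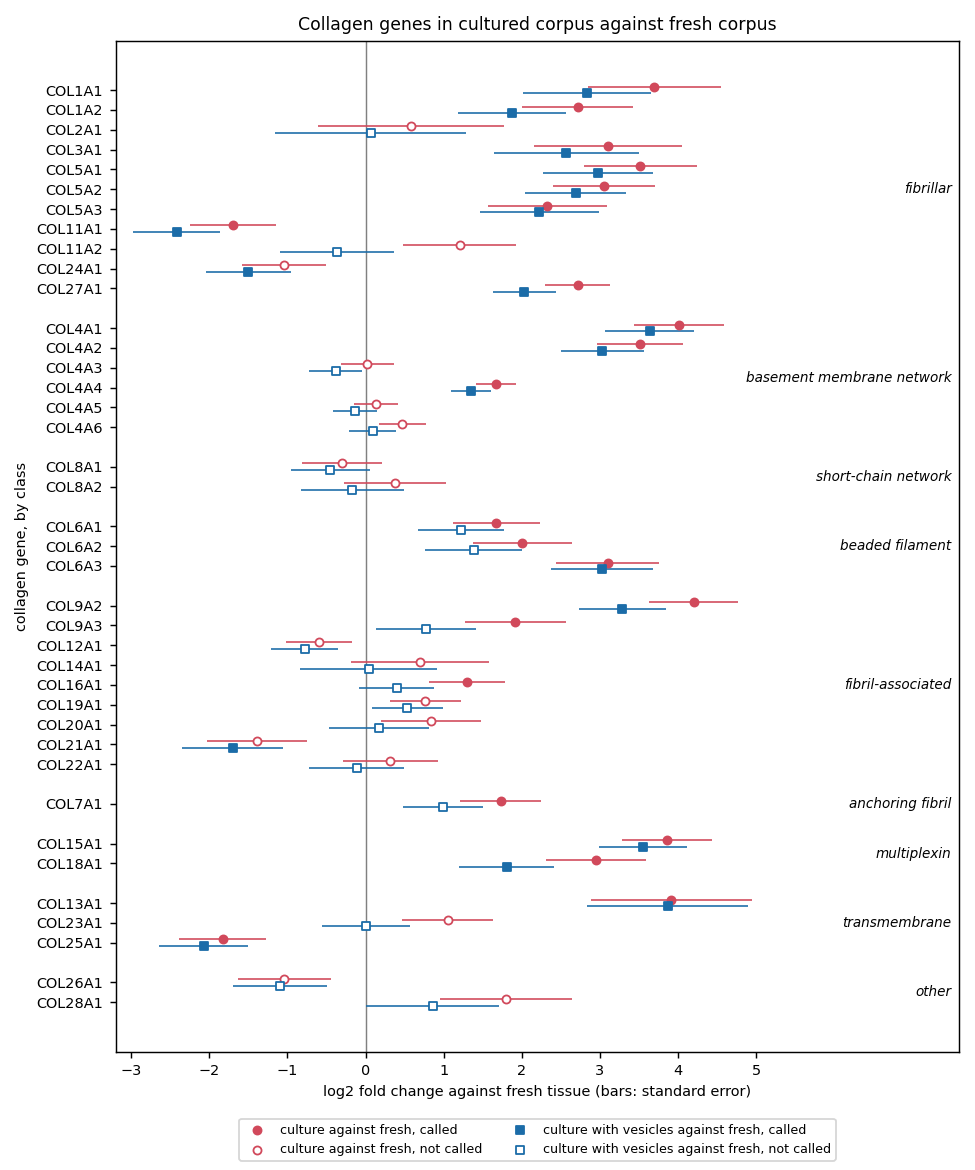
Log2 fold change against fresh tissue (x axis, bars are SE) of the 39 tested collagens by class, for culture (circles) and culture with vesicles (squares); filled symbols are called at an adjusted p under 0.05. The fibrillar, type IV, type VI and multiplexin chains hold most of the filled symbols to the right of 0, while COL11A1 and COL25A1 sit left of 0 in both.

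Among the fibrillar collagens, 7 of 11 were called higher in culture, 1 was lower and 3 were not called, with a median change of 2.71; without culture 3, 6 were called higher, 1 was lower, and the median was 2.103. The 7 were the stromal chains COL1A1, COL1A2, COL3A1, COL5A1, COL5A2 and COL5A3, and COL27A1, a fibrillar chain best known from cartilage. COL1A2, the second chain of type I collagen, stood at 331, 474, 215, 79 and 169 CPM in fresh libraries 1 to 5, at 906, 3243, 3081, 308 and 787 CPM in culture, and at 506, 2266, 644, 242 and 990.4 CPM with vesicles. Every culture exceeded the fresh library of its own number, yet the groups overlapped because culture 4 and vesicles 4 were below fresh 2. The change was 2.71 ± 0.71 (adjusted p = 0.00438) in culture and 1.87 ± 0.69 (adjusted p = 0.0313) with vesicles. Its partner COL1A1 stood at 241, 297, 135, 43.3 and 87.9 CPM in fresh tissue, 972, 4669.5, 3691, 255 and 829.9 in culture and 632, 3227, 752, 226 and 889.8 with vesicles. COL1A1 changed by 3.69 ± 0.85 (adjusted p = 0.00188) and 2.83 ± 0.82 (adjusted p = 0.00905), again with all 5 numbers upward in both. The chain of type III collagen, COL3A1, had 166, 272, 132, 44.2 and 91.8 CPM in fresh tissue, 479.9, 3537, 1591, 149.8 and 313 in culture and 235, 2894, 326, 134 and 599.7 with vesicles, and changed by 3.10 ± 0.95 (adjusted p = 0.0121) and 2.57 ± 0.93 (adjusted p = 0.0299). Number 2 was the highest for COL3A1 in all 3 groups.

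Type V collagen, which nucleates type I fibrils and sets their width, rose in both of its main chains. COL5A1 stood at 15.7 to 46.8 CPM in the fresh samples, 66.5 to 728 in culture and 57.7 to 602 with vesicles, and COL5A2 at 16.4 to 41.3, 57.2 to 455 and 42.7 to 445 CPM. For both chains no cultured library overlapped the fresh ones, and the changes were 3.52 ± 0.72 (adjusted p = 0.000781) and 3.05 ± 0.65 (adjusted p = 0.00103) in culture and 2.98 ± 0.71 (adjusted p = 0.00239) and 2.69 ± 0.64 (adjusted p = 0.00246) with vesicles. COL5A3, a minor chain of the same type, was higher by 2.32 ± 0.76 (adjusted p = 0.0177) in culture, but culture 4 and vesicles 4 lay below their own fresh library, and without culture 3 the value was 1.60 (adjusted p = 0.0687). With vesicles COL5A3 changed by 2.22 ± 0.76 (adjusted p = 0.0224); with the replicate number as a block the value was 1.52 ± 0.70 (adjusted p = 0.084), without fresh 3 it was 2.08 (adjusted p = 0.0524) and without vesicles 2 1.35 (adjusted p = 0.117). COL27A1 spanned 1.65 to 3.99 CPM in fresh libraries, 10.7 to 46.3 in culture and 8.49 to 17.2 with vesicles, with no overlap, a change of 2.71 ± 0.41 (adjusted p = 5.93e-05) and 2.03 ± 0.41 (adjusted p = 0.000623); without culture 3 the first was 2.103 (adjusted p = 1.11e-05).

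Several type I and III values leaned on library number 2. Without vesicles 2, the changes with vesicles were 1.94 (adjusted p = 0.0408) for COL1A1, 1.21 (adjusted p = 0.134) for COL1A2, 1.18 (adjusted p = 0.22) for COL3A1, 2.21 (adjusted p = 0.00915) for COL5A1 and 1.97 (adjusted p = 0.00941) for COL5A2. Leaving out fresh 3, 4 or 5 or vesicles 5 also took the COL1A2 call with vesicles away, at adjusted p of 0.0627, 0.0681, 0.0682 and 0.0529, and leaving out fresh 1, 3, 4 or 5 did so for COL3A1, at 0.0503, 0.0579, 0.0654 and 0.0642. In culture, COL3A1 without culture 2 changed by 2.17 (adjusted p = 0.048). All of these values stayed above 0. With all libraries and the replicate number as a block, the vesicle values were 1.73 ± 0.36 (adjusted p = 0.00159) for COL1A2 and 1.93 ± 0.46 (adjusted p = 0.00366) for COL3A1. Both were called higher.

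**Figure D2:**
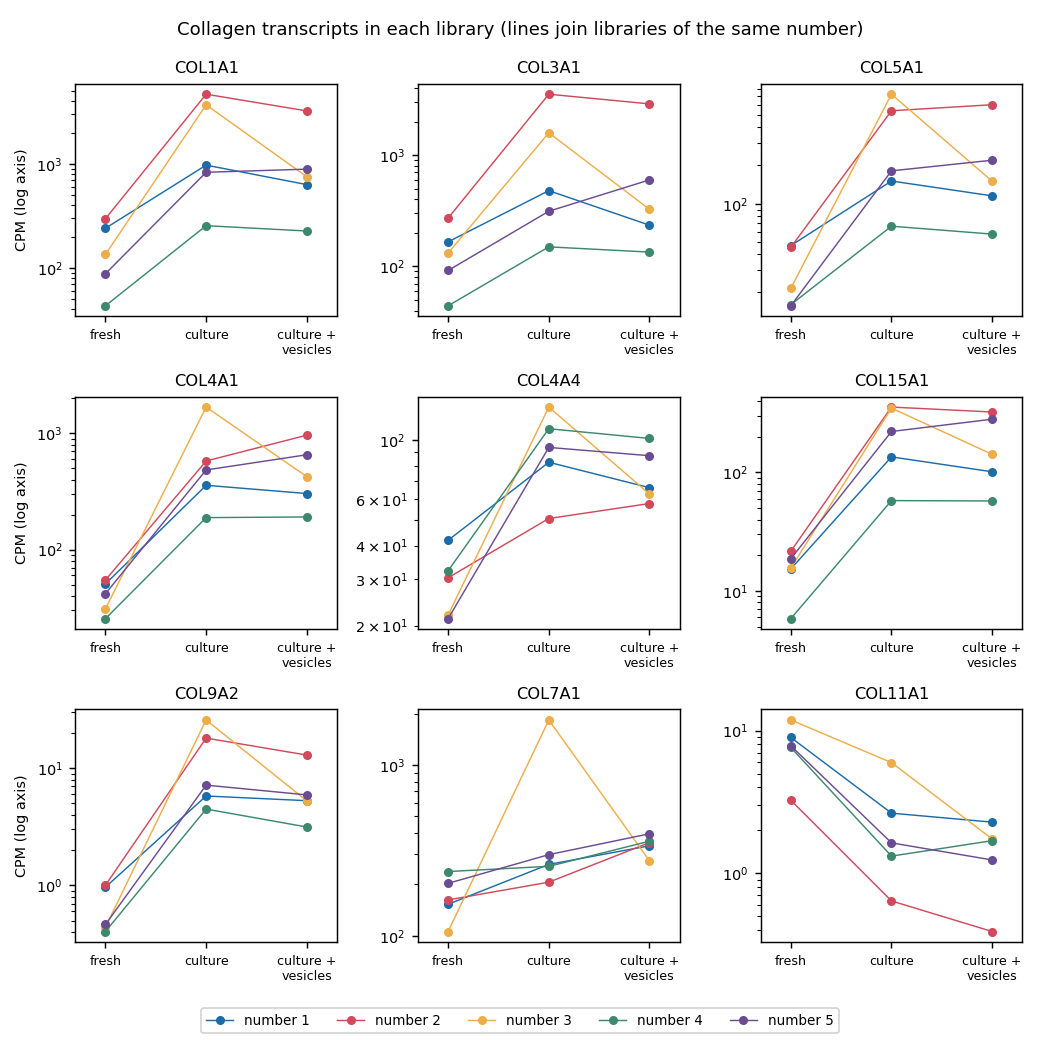
Level in CPM (y axis, log scale) of 9 collagens in each library of the 3 groups (x axis); lines join libraries of the same number, which need not be the same animal. COL4A1 and COL15A1 rise in all 5 numbers, COL11A1 falls in all 5, and COL7A1 shows culture 3 at 1834 CPM far above the other cultures.

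Of the other fibrillar chains, COL11A1 was called lower in culture and COL2A1, COL11A2 and COL24A1 were not called. COL11A1, a chain of type XI collagen that is typical of cartilage, stood at 8.95, 3.25, 11.9, 7.62 and 7.83 CPM in fresh tissue, 2.64, 0.64, 5.97, 1.32 and 1.63 in culture and 2.28, 0.391, 1.74, 1.69 and 1.24 with vesicles. It was lower than the fresh library of the same number in all 10 cultured libraries, and with vesicles the groups did not overlap. The change was -1.70 ± 0.54 (adjusted p = 0.0157) in culture, -2.33 (adjusted p = 0.00131) without culture 3, and -2.42 ± 0.56 (adjusted p = 0.00199) with vesicles. COL24A1, a fibrillar chain described in developing bone and eye, stood at 4.38 to 18 CPM in the fresh samples, 1.36 to 9.42 in culture and 1.61 to 6.56 with vesicles. Its value of -1.04 ± 0.54 (adjusted p = 0.113) in culture was not called (without culture 2, -1.58 (adjusted p = 0.0197)), and with vesicles it was lower by the test, at -1.50 ± 0.54 (adjusted p = 0.0297). That call was lost without fresh 2 (-1.03, adjusted p = 0.115) and without vesicles 1, 3, 4 or 5 (adjusted p of 0.0618, 0.0623, 0.0651 and 0.0586). With all libraries and the replicate number as a block, the vesicle value was -1.54 ± 0.29 (adjusted p = 0.000715), called lower. The cartilage chain COL2A1 was near the detection limit, at 27, 39 and 29 counts summed over the fresh, culture and vesicle libraries. COL11A2, another type XI chain, stood at 0.441 to 0.876 CPM in the fresh samples, 0.411 to 5.14 in culture and 0 to 0.809 with vesicles. Neither was called in either comparison.

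In the basement membrane network, 3 of the 6 type IV chains were called higher in both cultures and the other 3 in neither (median change 1.07 in culture, 0.72 with vesicles). COL4A1 and COL4A2, the chains found in nearly all basement membranes, had the largest changes of the 6. COL4A1 stood at 50.7, 54.8, 31, 25.5 and 41.8 CPM in fresh tissue, 357, 578, 1679.7, 188 and 484 in culture and 303, 963, 424, 191 and 654 with vesicles. Even the lowest cultured library, culture 4, lay far above the highest fresh library. The change was 4.01 ± 0.58 (adjusted p = 3.39e-05) in culture, 3.31 (adjusted p = 2.64e-05) without culture 3, and 3.64 ± 0.57 (adjusted p = 7.33e-05) with vesicles. COL4A2 went from 23.1 to 44.5 CPM to 114 to 1018 in culture and 117 to 461 with vesicles, again with no overlap, a change of 3.51 ± 0.55 (adjusted p = 7.39e-05) and 3.03 ± 0.54 (adjusted p = 0.000229); without culture 3 it was 2.70 (adjusted p = 3.42e-05).

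Of the remaining type IV chains, COL4A4 was called higher and COL4A3, COL4A5 and COL4A6 were not called. COL4A4 stood at 41.9, 30.3, 21.9, 32.2 and 21.2 CPM in fresh tissue, 82.3, 50.6, 133, 110.1 and 93.6 in culture and 66, 57.6, 62.5, 101 and 87.1 with vesicles, with no overlap and changes of 1.67 ± 0.26 (adjusted p = 6.51e-05) and 1.34 ± 0.26 (adjusted p = 0.000416). COL4A3, which lies beside COL4A4 and whose chain joins the same trimer in specialised basement membranes, stood at 15.6, 15.1, 11.4, 8.31 and 6.85 CPM in fresh tissue, 7.6, 5.76, 23.2, 12.5 and 9.28 in culture and 8.06, 9.51, 6.19, 8.93 and 11.3 with vesicles. COL4A3 was not called, with a difference of 0.02 ± 0.34 (adjusted p = 0.965) in culture (95% interval -0.70 to 0.75; -0.38 without culture 3) and -0.38 ± 0.34 (adjusted p = 0.367) with vesicles. COL4A5 and COL4A6, neighbours on the X chromosome, were not called either: the differences in culture were 0.13 ± 0.28 (adjusted p = 0.722) and 0.47 ± 0.30 (adjusted p = 0.199), and for COL4A5 with vesicles -0.14 ± 0.28 (adjusted p = 0.711). COL4A6 stood at 22.2 to 34.7 CPM with vesicles, beside 14.8 to 38.6 CPM in fresh tissue. COL4A5 overlaps the protein-coding gene BEX4 in the RefSeq annotation, so reads of both may not have been separated. The sign of the COL4A3 and COL4A5 values in culture changed with some scalings and left-out libraries, so neither has a direction here.

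Ratios of read counts between chains, taken within a library, shifted for some partner pairs and overlapped for others. These ratios are not corrected for transcript length, so only their change between libraries can be read. COL1A1 over COL1A2 was 0.727, 0.628, 0.627, 0.548 and 0.519 in fresh tissue, 1.07, 1.44, 1.2, 0.826 and 1.05 in culture and 1.25, 1.42, 1.17, 0.937 and 0.898 with vesicles, so all 10 cultured libraries exceeded the 5 fresh ones. COL4A1 over COL4A2 was 1.1 to 1.33 in fresh libraries, 1.65 to 2.11 in culture and 1.63 to 2.09 with vesicles, also without overlap. COL4A3 over COL4A4 moved the other way, with 0.259 to 0.522 in fresh libraries, 0.0923 to 0.174 in culture and 0.0883 to 0.165 with vesicles. Culture 3 lay among the other cultures for the first of these ratios, was narrowly the lowest culture for the second and was the highest for the third. COL3A1 over COL1A1 overlapped, at 0.691 to 1.04, 0.377 to 0.757 and 0.371 to 0.897. COL5A1 over COL1A1 also overlapped, at 0.153 to 0.371 in fresh libraries, 0.116 to 0.261 in culture and 0.182 to 0.255 with vesicles. So did the partner pairs COL5A1 over COL5A2, at 0.703 to 1.57, 1.16 to 1.99 and 1.09 to 1.58, and COL4A5 over COL4A6, at 2.42 to 4.34, 1.96 to 3.15 and 1.95 to 3.23. COL8A1 over COL8A2 overlapped at 4.03 to 32.2, 3.53 to 6.69 and 4.76 to 9.16. These ratios were chosen with values known and carry no test.

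**Figure D3:**
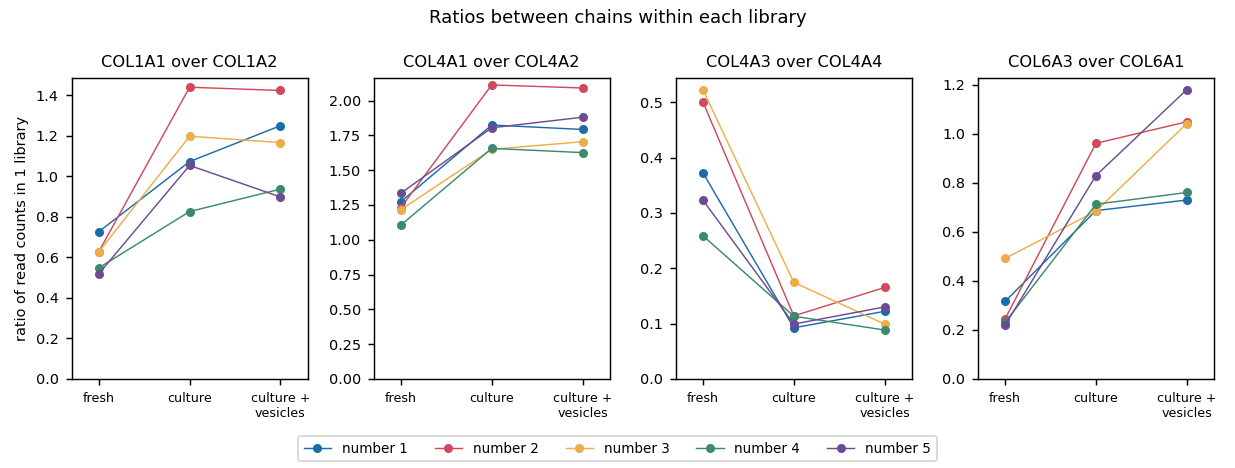
Ratio of read counts of 2 collagen chains within a library (y axis, linear from 0) in each group (x axis), lines joining libraries of the same number. All 10 cultured libraries lie above the fresh ones for COL1A1 over COL1A2, COL4A1 over COL4A2 and COL6A3 over COL6A1, and below them for COL4A3 over COL4A4.

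Type VI collagen, the beaded filament that links cells to the surrounding matrix, had 3 tested chains, and all 3 were called higher in culture (median 2.01) and 1 of 3 with vesicles. Without culture 3, 1 of the 3 was called higher in culture, with a median of 1.38. COL6A1 stood at 297, 336, 137, 126 and 142 CPM in fresh tissue, 389, 982, 1282, 195 and 461 in culture and 294, 1122, 338, 146 and 527 with vesicles. Numbers 1 and 4 hardly moved with vesicles, and the groups overlapped in both comparisons. The change was 1.67 ± 0.56 (adjusted p = 0.0196) in culture and 1.29 (adjusted p = 0.0589) without culture 3; with vesicles it was 1.22 ± 0.55 (adjusted p = 0.0743), not called, and 0.98 ± 0.39 (adjusted p = 0.0494) with the replicate number as a block. COL6A2, its neighbour and partner chain, gave 2.01 ± 0.63 (adjusted p = 0.0136) in culture, 1.38 (adjusted p = 0.0536) without culture 3, 1.38 ± 0.62 (adjusted p = 0.0714) with vesicles and 1.15 ± 0.43 (adjusted p = 0.0394) with the block. Without vesicles 4, COL6A1 and COL6A2 were called with vesicles, at 1.44 (adjusted p = 0.0379) and 1.61 (adjusted p = 0.0387), and without culture 3 COL6A2 was too, at 1.39 (adjusted p = 0.0421).

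COL6A3, the largest type VI chain, was the 1 called higher in both comparisons. It stood at 94.1, 82.4, 67.3, 29.1 and 31.1 CPM in fresh libraries, 267, 944, 877, 139 and 383 in culture and 215, 1177, 352, 111 and 622 with vesicles, with no overlap in either comparison. The changes were 3.10 ± 0.66 (adjusted p = 0.000994) and 3.03 ± 0.66 (adjusted p = 0.00121), and without vesicles 2 the second was 2.40 (adjusted p = 0.00404). The ratio of COL6A3 to COL6A1 counts was 0.316, 0.245, 0.492, 0.231 and 0.219 in fresh tissue, 0.687, 0.961, 0.684, 0.713 and 0.83 in culture and 0.73, 1.05, 1.04, 0.761 and 1.18 with vesicles, without overlap, while COL6A1 over COL6A2 overlapped at 1.4 to 1.78, 0.998 to 1.77 and 1.28 to 1.62. The alternative chains COL6A5 (5, 8 and 0 counts in the fresh, culture and vesicle groups) and COL6A6 (6, 0 and 0 counts) were too low to test.

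**Figure D4:**
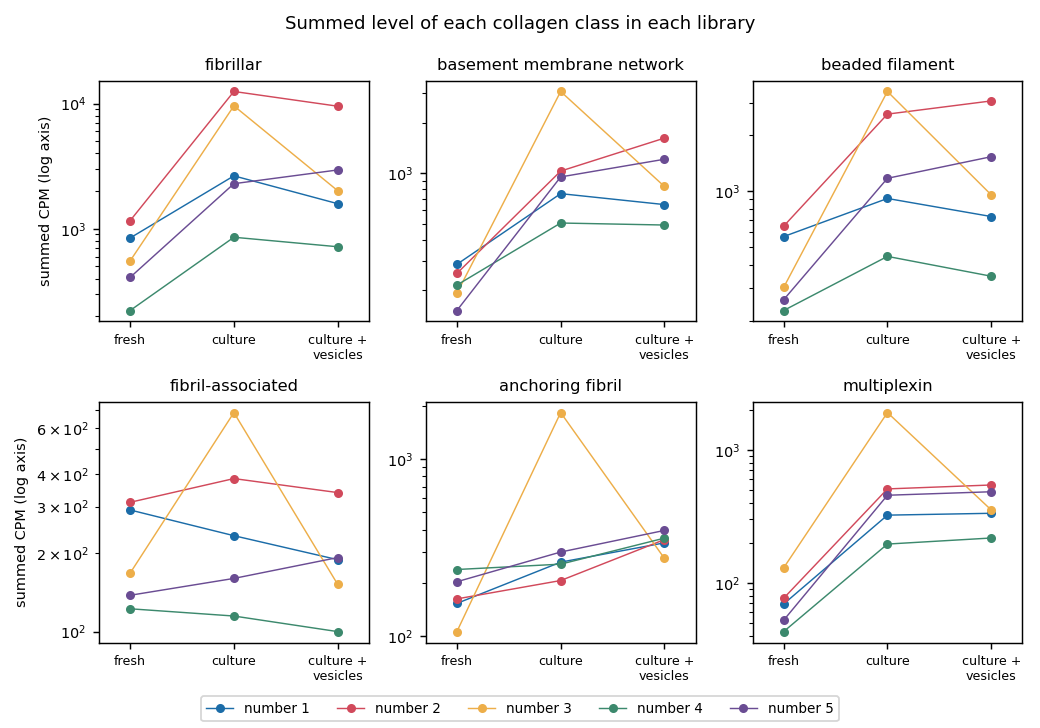
Summed level in CPM (y axis, log scale) of 6 collagen classes in each library, by group (x axis), lines joining libraries of the same number. The fibrillar, type IV, type VI, anchoring fibril and multiplexin sums rise in all 5 numbers, and the fibril-associated sum does not. Culture 3 is the highest culture in every class shown but the fibrillar one, where culture 2 is.

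The multiplexins, COL15A1 and COL18A1, are basement-membrane-zone collagens, and the end of COL18A1 is the source of endostatin. Both were called higher in both comparisons, without overlap of the groups. COL15A1 stood at 15.3, 21.6, 15.6, 5.83 and 18.7 CPM in fresh tissue, 135, 356, 349, 57.8 and 221 in culture and 101, 323, 142, 57.4 and 281 with vesicles. Number 4 was the lowest of each group and still rose. The changes were 3.86 ± 0.57 (adjusted p = 4.55e-05) and 3.55 ± 0.56 (adjusted p = 8.69e-05). COL18A1 stood at 53.9, 54.9, 114, 37.1 and 33.7 CPM in fresh tissue, 187, 152, 1555, 138 and 234 in culture and 232, 220.3, 211, 159.7 and 202 with vesicles. Culture 3 was far above the other cultures, and fresh 3 was the highest fresh library. COL18A1 changed by 2.95 ± 0.64 (adjusted p = 0.00111) in culture, 1.61 (adjusted p = 0.000372) without culture 3, and 1.80 ± 0.61 (adjusted p = 0.021) with vesicles, where leaving out fresh 5 gave 1.66 (adjusted p = 0.0508). With all libraries and the replicate number as a block, the vesicle value was 2.05 ± 0.41 (adjusted p = 0.00109), called higher. The gene overlaps SLC19A1 in the RefSeq annotation, and with the strand setting of the counts not given, reads of overlapping genes may not have been separated.

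COL7A1 forms the anchoring fibrils that hold an epithelial basement membrane to the stroma. It stood at 153, 162, 106, 238 and 203 CPM in fresh tissue, 262, 206, 1834, 255 and 299 in culture and 337, 351, 275, 358 and 396 with vesicles. All 5 cultures exceeded their own fresh library, and with vesicles the groups lay apart, but culture 3 was far above every other library. The change in culture was 1.73 ± 0.52 (adjusted p = 0.0111) and 0.58 (adjusted p = 0.0187) without culture 3. With vesicles it was 0.99 ± 0.51 (adjusted p = 0.116) in the fit with all libraries, not called, and 1.00 (adjusted p = 0.000304) without culture 3, where culture 3 no longer enters the estimate of the spread that the 3 groups share. Markers of basal epithelial cells moved in the same direction: all 5 tested of 6 listed (KRT5, TP63, ITGB4, ITGA6 and TRIM29) were called higher in both comparisons, and their summed level was 359 to 641 CPM in the fresh samples, 1890.1 to 5615 in culture, highest in culture 3, and 1588 to 4859 with vesicles. Their part in the COL7A1 result was not tested.

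The fibril-associated collagens were mixed. In culture, 3 of the 9 tested (33.3%) were called higher and 6 were not called, beside 28.7% of all genes called higher. With vesicles, 1 (11.1%) was higher, 1 lower and 7 not called, beside 27.4% of all genes higher and 25.5% lower. Without culture 3, 1 of the 9 was called higher in culture. The largest change of any collagen in culture was that of COL9A2, a chain of cartilage type IX collagen, at 0.966, 1, 0.44, 0.404 and 0.464 CPM in fresh tissue, 5.79, 18.1, 25.8, 4.48 and 7.17 in culture and 5.28, 12.9, 5.26, 3.15 and 5.92 with vesicles. It was low everywhere, but no cultured library overlapped the fresh ones, and the changes were 4.20 ± 0.57 (adjusted p = 2.03e-05) and 3.28 ± 0.55 (adjusted p = 0.00015). COL9A3, of the same collagen type, stood at 4.34 to 9.99 CPM in the fresh samples, 3.86 to 85.3 in culture and 3.67 to 18 with vesicles; it changed by 1.92 ± 0.65 (adjusted p = 0.0209) in culture, by 0.73 (adjusted p = 0.167) without culture 3, and by 0.77 ± 0.63 (adjusted p = 0.325) with vesicles, not called. With the replicate number as a block and without culture 3, COL9A3 was called higher in both comparisons (adjusted p = 0.015 with vesicles). COL9A3 overlaps TCFL5 in the annotation. The third chain of the type, COL9A1, had 11, 2 and 0 counts in the 3 groups and was not tested. Of the 6 cartilage markers listed, SOX9 and MATN3 were called higher in culture, COMP and HAPLN1 were not called, ACAN and MATN1 were too low to test and MATN1 was at 0 counts in culture; the summed level was 9.90 to 14.3 CPM in the fresh samples, 47.5 to 133 in culture and 61.3 to 91.8 with vesicles, and their part in the COL9A2 result was not tested.

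COL16A1, a minor fibril-associated chain, stood at 109, 90.7, 51.3, 51.7 and 47.2 CPM in fresh tissue, 111, 144, 465, 59.3 and 83.5 in culture and 94.1, 144, 76.8, 46.7 and 99.7 with vesicles. Numbers 1 and 4 moved little, and culture 3 was by far the highest. Its change of 1.30 ± 0.49 (adjusted p = 0.0343) in culture was 0.51 (adjusted p = 0.212) without culture 3 and was also lost without fresh 3, 4 or 5 (adjusted p of 0.0746, 0.0733 and 0.0768); with vesicles it was 0.40 ± 0.48 (adjusted p = 0.512), not called. COL21A1, a fibril-associated chain described in blood vessel walls, ran the other way, at 5.88, 8.59, 14.7, 2.71 and 2.37 CPM in fresh tissue, 1.46, 5.81, 4, 0.8 and 1 in culture and 0.963, 4.95, 1.7, 1.42 and 1.52 with vesicles. It was below its own fresh library in all 10 cultured libraries, although the ranges overlapped. The value in culture was -1.39 ± 0.64 (adjusted p = 0.0787), not called (-1.91 (adjusted p = 0.0259) without culture 2). With vesicles it was -1.70 ± 0.65 (adjusted p = 0.0378), called lower, and -2.31 (adjusted p = 0.0104) without vesicles 2. That call was lost without fresh 1, 2 or 3 or vesicles 1, 3, 4 or 5, at adjusted p of 0.0504 to 0.131. With all libraries and the replicate number as a block, the vesicle value was -1.61 ± 0.38 (adjusted p = 0.00315), called lower.

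COL12A1, which attaches to type I fibrils in dense connective tissue, had a lower value than its fresh library in all 10 cultured libraries: 44.4 to 156 CPM in the fresh samples, 29.4 to 93.4 in culture and 21 to 90.9 with vesicles. The differences of -0.60 ± 0.43 (adjusted p = 0.252) and -0.78 ± 0.43 (adjusted p = 0.14) were not called. With the replicate number as a block they were -0.56 ± 0.15 (adjusted p = 0.00719) and -0.77 ± 0.15 (adjusted p = 0.00101), both called lower. COL14A1, a related chain of fibroblasts, followed number 2: fresh 2, culture 2 and vesicles 2 held 46.1, 101 and 59.8 CPM, while the other libraries held 4.25 to 19.0 CPM. COL19A1 stood at 0.307 to 1.86, 1.18 to 3.11 and 0.821 to 2.32 CPM in the 3 groups, COL20A1 at 0.395 to 2.55, 0.985 to 9.71 and 1.1 to 3.78, and COL22A1 at 1.21 to 4.33, 0.906 to 5.49 and 0.63 to 5.21. These 4 were not called, and their groups overlapped. COL22A1 also overlaps a protein-coding gene, LOC123383004, in the annotation.

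The short-chain network chains COL8A1 and COL8A2, typical of vessel walls and the cornea, were not called. COL8A1 stood at 11.1, 14.6, 8.23, 7.45 and 10.6 CPM in fresh tissue, 6.85, 19.2, 8.62, 3.04 and 4.53 in culture and 4.25, 16.6, 5.14, 2.36 and 9.81 with vesicles, with number 2 the highest of each group. COL8A2 ranged over 0.231 to 2.77, 0.56 to 3.52 and 0.394 to 2.78 CPM. COL10A1, of hypertrophic cartilage, had 0 counts in fresh tissue, 11 in culture and 13 with vesicles and was not tested; it also overlaps NT5DC1 in the annotation.

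Of the 3 transmembrane collagens, 1 was called higher, 1 lower and 1 not at all in both comparisons. The shares of all genes were 28.7% higher and 25.6% lower in culture, and 27.4% and 25.5% with vesicles. COL13A1, found at cell adhesion sites and at the neuromuscular junction, stood at 0.0878, 0.321, 1.45, 0 and 0 CPM in fresh tissue, 1.42, 8.05, 13.2, 2.76 and 3.79 in culture and 1.53, 14.5, 3.48, 1.5 and 7.38 with vesicles. It had 0 counts in fresh 4 and fresh 5, and fresh 3 was the only fresh library near the cultured ones. The changes were 3.91 ± 1.03 (adjusted p = 0.00472) and 3.87 ± 1.03 (adjusted p = 0.00522); without fresh 3 they were 5.63 (adjusted p = 0.000727) and 5.58 (adjusted p = 0.00078), and without vesicles 2 the second was 3.14 (adjusted p = 0.0177). COL25A1, a neuronal collagen, fell from 1.14, 1.89, 0.792, 0.462 and 0.722 CPM in fresh libraries to 0.118, 0.503, 0.311, 0.16 and 0.316 in culture and 0.107, 0.174, 0.162, 0.157 and 0.62 with vesicles, that is from 113 counts in all to 30 and 26. All 10 cultured libraries were below their own fresh library, and the changes were -1.83 ± 0.56 (adjusted p = 0.0117) and -2.07 ± 0.57 (adjusted p = 0.00619), the latter -2.72 (adjusted p = 0.00109) without vesicles 5. COL23A1, also a membrane collagen, stood at 11, 8.83, 7.7, 3.52 and 3.25 CPM, 6.38, 11.5, 41.9, 4.72 and 6.69 and 5.53, 11.4, 7.61, 2.48 and 7.38; it was not called, and culture 3 was its highest library. Markers of nerve and Schwann cells, beside COL25A1, had a summed level of 82.7 to 146 CPM in the fresh samples, 81.6 to 153 in culture and 78.6 to 127 with vesicles. Of 7 tested, NCAM1 was called lower and PMP22 higher (all genes in culture: 25.6% lower, 28.7% higher). The part of these markers in the COL25A1 result was not tested.

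Of the 2 remaining genes, COL26A1, a collagen with short helical stretches that was described in testis and ovary, stood at 24.2, 5.26, 13.4, 30.4 and 11.6 CPM in fresh tissue, 2.21, 13.8, 14.7, 3.44 and 7.22 in culture and 3.5, 18.2, 4.49, 4.05 and 9.35 with vesicles. Number 2 was higher in both cultures where numbers 1, 4 and 5 were lower, and the difference in culture was -1.04 ± 0.60 (adjusted p = 0.156), not called. With vesicles the difference was -1.10 ± 0.60 (adjusted p = 0.137), not called, but without vesicles 2 it was called lower. With the replicate number as a block and without culture 3, COL26A1 was called lower in culture. COL28A1, a chain of nerve-associated type XXVIII collagen, stood at 0 to 0.75, 0.594 to 3.32 and 0.392 to 1.47 CPM and was not called.

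Markers of stromal cells and macrophages were called changed in part. In culture, 28.7% of all genes were called higher and 25.6% lower. Summed over 10 fibroblast markers, the level was 904.5, 1659.7, 534, 527 and 576 CPM in fresh tissue, 1323, 5163, 827, 809 and 1086 in culture and 790, 3545, 965, 552 and 1411 with vesicles. Culture 2 and vesicles 2 were the highest of their groups for these markers and for the fibrillar collagen sum (12499 and 9530.4 CPM), whereas culture 3 combined a fibroblast sum of 827 CPM with a fibrillar collagen sum of 9590.4 CPM. Of the 10 fibroblast markers, PDGFRB and THY1 were called higher in culture, SCARA5 lower and 7 not. Smooth muscle markers summed to 662 to 1696 CPM in the fresh samples, 1266 to 4558 in culture and 690 to 4414 with vesicles, with 3 of 8 higher (TAGLN, SMTN and ACTG2). Endothelial markers summed to 252 to 338, 423 to 611 and 339 to 767 CPM, with 3 of 8 higher (PECAM1, CDH5 and KDR). Macrophage markers summed to 36.3 to 70.6, 69.1 to 161 and 62.1 to 121 CPM, with 3 of 8 higher in culture. With vesicles, 3 macrophage markers were higher and 1 lower (all genes: 27.4% higher, 25.5% lower). No marker of these 4 lists was at 0 in a whole group. Their part in the collagen results was not tested.

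Genes that handle collagen were described with lists of their roles: 67 of 72 were tested (DCN, LUM and DPT also stand among the fibroblast markers), and 38 were called higher and 10 lower in culture, 39 and 10 with vesicles, beside the all-gene shares above. Enzymes that hydroxylate and glycosylate the chains had 8 of 13 higher and 1 lower. P4HA1, a prolyl 4-hydroxylase subunit, had 34.9 ± 1.5 CPM in fresh tissue, 245 ± 87.5 in culture, a change of 2.81 ± 0.23 (adjusted p = 1.24e-07). P4HA2, of the same enzyme family, changed by 1.55 ± 0.14 (adjusted p = 3.62e-07) and the lysyl hydroxylase PLOD3 by 1.82 ± 0.22 (adjusted p = 7.87e-06), while PPIB, a proline isomerase of the same complex as prolyl 3-hydroxylase, was the member called lower. Folding and export chaperones were divided, with 3 of 8 higher and 4 lower. SERPINH1, a chaperone specific to procollagen, had 26.2 ± 12.1 CPM in fresh tissue, 304 ± 187 in culture, a change of 3.53 ± 0.49 (adjusted p = 2.48e-05), while MIA3 and MIA2, which load bulky cargo such as procollagen into transport vesicles, changed by -0.93 ± 0.11 (adjusted p = 3.55e-06) and -2.01 ± 0.12 (adjusted p = 1.04e-08).

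Outside the cell, propeptide processing had 4 of 8 higher and 0 lower, among them the procollagen C-proteinase BMP1 at 2.65 ± 0.44 (adjusted p = 0.00013), its relative TLL1 at 1.48 ± 0.45 (adjusted p = 0.0118), and ADAMTS14, a procollagen N-proteinase, at 6.25 ± 0.96 (adjusted p = 6.4e-05) (7.03 without fresh 2, on very few fresh counts). Of the 6 cross-linking enzymes 5 were higher: LOXL2, a lysyl oxidase that acts on basement membrane collagen, had 1.63 ± 0.527 CPM in fresh tissue, 61 ± 42.4 in culture, a change of 5.21 ± 0.68 (adjusted p = 1.36e-05). PXDN, the peroxidase that cross-links type IV collagen, changed by 3.72 ± 0.53 (adjusted p = 3.19e-05), and LOXL3 was the member called lower, at -1.59 ± 0.24 (adjusted p = 6.22e-05). Among 14 fibril-binding proteoglycans and partners, 3 were higher and 4 lower: THBS1 changed by 3.14 ± 0.43 (adjusted p = 2.2e-05) and SPARC, a collagen-binding matrix glycoprotein, by 2.68 ± 0.50 (adjusted p = 0.000349), against -5.16 ± 0.85 (adjusted p = 0.000111) for the keratan sulphate proteoglycan OMD, with KERA, OGN and PRELP also lower.

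Collagen receptors were called higher for 7 of 9 tested and lower for 0. ITGA2, the integrin subunit that binds type I and IV collagen, had 5.81 ± 2.41 CPM in fresh tissue, 290.2 ± 119 in culture, a change of 5.64 ± 0.36 (adjusted p = 1.48e-08); its partner ITGB1 changed by 2.12 ± 0.22 (adjusted p = 1.31e-06) and the receptor kinase DDR1 by 1.43 ± 0.16 (adjusted p = 3.25e-06). Collagen-degrading enzymes were higher for 8 of 9 tested, with a list median of 3.75. The collagenase MMP13 had 0.566 ± 0.608 CPM in fresh tissue, 475 ± 232 in culture, a change of 9.73 ± 0.76 (adjusted p = 9.01e-08), or 10.57 without fresh 5; the gelatinase MMP9 changed by 4.74 ± 0.49 (adjusted p = 1.32e-06) and the membrane-bound MMP14 by 2.73 ± 0.31 (adjusted p = 3.6e-06). MMP1, another collagenase, had 0 counts in the 5 fresh libraries and 29 to 609 in each culture, at least 513-fold higher against a floor of 3 counts over the fresh group. The lists of modification, propeptide processing, cross-linking, receptors and breakdown each held more members called higher than lower, and the folding and proteoglycan lists did not.

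Caput vesicles were compared with culture alone. By edgeR's quasi-likelihood test 0 of the 39 collagens were called, as were 0% of all 18038 genes; DESeq2 and limma-voom called 0 as well, and 183 genes had an unadjusted p under 0.05. The estimate was below 0 for 39 of 39 collagens (all genes: 49.8%), with a median of -0.48. This count depended on the libraries and the test: it was 26 without culture 3, 29 without culture 2 and 22 with limma-voom. By library number, the vesicle library was higher than its culture for 7, 23, 0, 12 and 31 of the 39 members at numbers 1 to 5, and the median difference was -0.21, 0.03, -1.92, -0.29 and 0.29. At number 3 every member was lower with vesicles, and at number 5 most were higher. Without culture 3, the median was -0.09.

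For single members the intervals were wide in the fit with the group as the only term. COL9A2 was lower with vesicles at all 5 numbers, by -0.91 ± 0.49 (95% interval -1.96 to 0.13, adjusted p = 1; the lowest adjusted p of any gene was 1). Its difference was -0.45 without culture 3. With all libraries and the replicate number as a block, it was -0.80 ± 0.36 (adjusted p = 0.967), not called. COL18A1 had an estimate of -1.14 ± 0.60 (95% interval -2.41 to 0.13, adjusted p = 1), and 0.21 without culture 3: vesicles 1, 2, 4 and 5 were at 232, 220, 159.7 and 202 CPM, beside 187, 152, 138 and 234 CPM in the cultures of the same number. With all libraries and the block, COL18A1 was -0.40 ± 0.41 (adjusted p = 0.967), not called. COL7A1 was higher with vesicles at 4 of 5 numbers and lower at number 3.

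**Figure D5:**
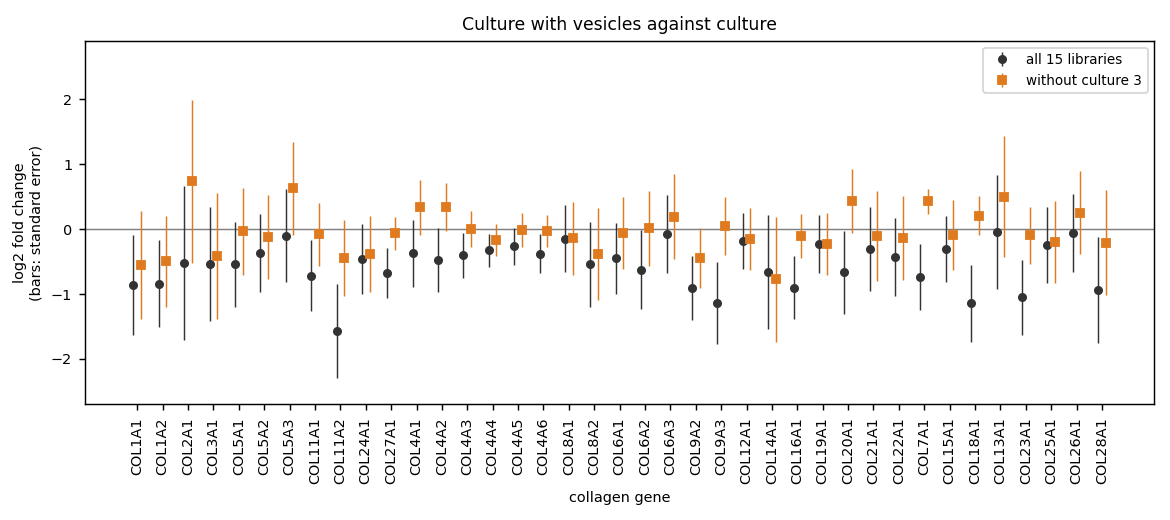
Log2 fold change of culture with vesicles against culture (y axis, bars are SE) for the 39 tested collagens (x axis), with all 15 libraries (circles) and without culture 3 (squares). With all libraries 39 of 39 circles lie below 0, and without culture 3 the squares scatter around 0, with 26 below it.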

How the data were processed

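RNA-seq read counts of cat corpus epididymis were analysed in 15 libraries, 5 each of fresh tissue, culture and culture with caput vesicles. The authors deposited raw counts per gene, 1 table of 38995 genes; per the labels' protocols, a Qiagen kit served for RNA extraction and the TruSeq Stranded mRNA kit for library preparation. Per the submitters' processing notes, StringTie 2.1.3b, Bowtie2 2.3.4.1, HISAT2 2.1.0 and Trimmomatic 0.38 were used (roles and order not stated). The sources used here do not give the counting program, genome build, annotation or strand setting, so reads of overlapping genes, or of similar chains, may not have been separated. Gene identifiers all matched a RefSeq table of assembly F.catus_Fca126_mat1.0, used for names and neighbours only; no sequence, position or transcript length was used, so levels of different genes are not compared.

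Counts were filtered with edgeR's filterByExpr (minimum count 10, minimum total 15), which left out 20957 genes, scaled by TMM, and fitted in 1 quasi-likelihood model of all 15 libraries with the group as the only term (edgeR 4.0.16, R 4.3.3, 12 residual degrees of freedom; 2-sided tests, Benjamini-Hochberg adjustment over 18038 genes). SE was obtained from each log2 fold change and its F statistic. CPM are counts per 1e6 of the effective library size, and log2 CPM used a prior count of 2. Alternatives were DESeq2 1.42.0, limma-voom (limma 3.58.1), other scalings and filters, 2 groups in the fit, a replicate block, and each library left out. Deviations from group means correlated between same-numbered libraries at 0.242 to 0.362 for vesicle and fresh libraries and at 0.181 to 0.602 for the 2 cultures. For culture and fresh, number 3 correlated only at 0.0326. Blocked values are therefore given member by member for the vesicle comparison with fresh tissue, where they change a call or where leaving out a library lost one. For culture against fresh they are given together, and also beside COL12A1. For the 2 cultures they are given for COL9A2 and COL18A1.

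The members and lists were chosen with earlier results of these data known. Values in all libraries are given for the highest member of each class and the 3 largest called rises and falls of each comparison, with other members added after their values were seen; of each partner list the 3 smallest p in culture are named, and others where they go against their list. The scripts were tested on simulated data. Depth limits the precision of members with few counts, and intervals cover the spread between libraries only.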

Additional observations from a re-analysis of the deposited data

Results flagged for a closer look

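Each group of 5 libraries of each tested collagen was screened for a highest or lowest library whose gap to the next, divided by the group's range, exceeded 0.71. For independent values with a normal distribution, chance gives about 1 group in 20. The screen used CPM without logs, and all genes share the same libraries, so that rate is not a measure for these groups. In all, 11 of 117 groups were picked out. Culture 3 was the highest culture in 5 of them: COL7A1 at 1834 CPM (others 206 to 299), COL18A1 at 1555 CPM (others 138 to 234), COL27A1 at 46.3 CPM (others 10.7 to 15.1), COL11A2 at 5.14 CPM (others 0.411 to 0.896) and COL28A1 at 3.32 CPM (others 0.594 to 0.867). This is the library in which mitochondrial protein genes held 0.179% of counts. Among fresh libraries, fresh 2 was high for COL14A1 at 46.1 CPM (others 8.25 to 11.7), fresh 4 was low for COL15A1 at 5.83 CPM (others 15.3 to 21.6), fresh 5 was low for COL4A5 at 35.9 CPM (others 77.1 to 103) and fresh 1 was low for COL20A1 at 0.395 CPM (others 1.81 to 2.55). With vesicles, vesicles 5 was high for COL25A1 at 0.620 CPM (others 0.107 to 0.174) and low for COL11A2 at 0 CPM (others 0.512 to 0.809).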

How the results depend on the processing

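Counts of collagens called higher against fresh tissue stayed within 1.5 times of those reported under all alternatives run, at 15 to 20 in culture and 12 to 19 with vesicles. The count called lower in culture, 2 in the report, was 5 with limma-voom, 1 with a filter at 1 CPM in 5 libraries, 5 with the replicate block, 6 with the block and without culture 3 (an alternative chosen after seeing the data), and 2 to 4 when each library was left out. With vesicles against fresh it was 2 to 5 over left-out libraries. The number of estimates below 0 for vesicles against culture was 22 with limma-voom, 26 to 39 over left-out libraries and 23 with the block and without culture 3. The replicate block gave 17 higher and 5 lower in culture and 16 higher and 5 lower with vesicles, and 0 calls for vesicles against culture. Of all 18038 genes, it called about 10440 in culture and about 10280 with vesicles, in either direction. In culture against fresh, where 4 of 5 numbers correlated best with their own, the block called COL12A1 (-0.56, adjusted p = 0.00719), COL21A1 (-1.52, adjusted p = 0.00372) and COL24A1 (-1.16, adjusted p = 0.0045) lower and COL19A1 (0.89, adjusted p = 0.0306) higher. It did not call COL5A3, COL7A1, COL9A3 and COL16A1 (adjusted p of 0.0524, 0.0696, 0.0617 and 0.0633).

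Over all 39 tested members and all alternatives, the sign of the estimate turned at least once for 8 members in culture against fresh, 7 with vesicles against fresh and 27 for vesicles against culture (13 of them without culture 3 and 17 with limma-voom); none of these estimates was called in the report. Among the members whose change the report gives, 3 were affected. COL4A3 in culture was -0.37 with limma-voom, -0.0765 with upper-quartile scaling, -0.0369 with the replicate block, -0.44 with the block and without culture 3, and -0.38 to 0.20 over left-out libraries. COL4A5 in culture was -0.0777 with limma-voom, -0.11 with the block and without culture 3, and -0.11 to 0.25 over left-out libraries. COL18A1 for vesicles against culture was 0.20 with limma-voom, 0.0736 with the block and without culture 3, and -1.41 to 0.21 over left-out libraries. Apart from the alternatives that leave out culture 3, whose values are given in the report, the cause was not tested. Over the partner lists, 36 to 42 members were called higher and 10 to 12 lower in culture; these alternatives were also added after seeing the data. DESeq2 gave no adjusted p for COL7A1 and COL18A1. Levels per coding length were planned and not run, as no lengths were used.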
